A study of Mus musculus with 18 samples.

Results

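Retinas of light-exposed mice that had received TD139 were compared with retinas of naïve mice, to describe what still differed from the undamaged retina under the drug. The comparison holds 6 of the 9 mice of the series, 3 in each group, and 12 of its 18 libraries, because each mouse was sequenced in 2 runs whose counts were summed. All animals were wild-type, albino BALB/cJ mice, young adults of both sexes that carry the light-sensitive form of RPE65. The naïve mice saw no damaging light and got no treatment. The TD139-treated mice got 15 mg/kg TD139 in DMSO by daily injection from the day before light, were exposed to 15000 lux for 1 h after dark adaptation, and were sampled 4 days after light. A further 3 mice, exposed to light and injected with the vehicle DMSO, are used for values beside the main comparison and share the fit. Naïve mice had neither light nor injections, so light, solvent, injection and drug cannot be told apart in any difference given here.

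TD139 is a small-molecule inhibitor of galectin-3, a lectin that activated microglia and other phagocytes make and release. Intense light kills photoreceptors, and microglia then move into the outer retina and release complement and cytokines while Müller cells become gliotic. Poly(A) RNA-seq of a whole retina reads all of its cell types together, with rods by far the most numerous. Fewer cells of a type and less RNA per cell cannot be told apart in such data.

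The 6 mice had 26171887 to 30201517 reads on genes, and a count of 3, the floor of detection, stood for 0.0993 to 0.115 reads per 1e6 reads on genes over all 9 mice. Levels of single genes are given as counts per 1e6 reads after TMM scaling of the library sizes (CPM), whereas sums over marker lists are per 1e6 reads on genes without that scaling. This floor covers counting error only. Reads on no gene made up 22.2% ± 0.81 (SD, n = 3) in TD139-treated and 19.3% ± 0.47 (SD, n = 3) in naïve mice, and the groups did not overlap (exact two-sided permutation test, p = 0.1, the smallest that 3 against 3 mice allow). Retinal markers were present at high levels in every mouse, whereas 21 lens genes summed to between 2.62 and 463 per 1e6 reads in the 6 mice and to 10397 in vehicle-treated mouse 2, whose skeletal muscle genes were also high at 1612. Xist and the Y-linked genes showed that each group held both sexes, with 1 male among the naïve and 2 among the TD139-treated mice.

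Lgals3, the gene of galectin-3, was at 10.1, 7.27 and 5.61 CPM in naïve mice, at 10.6, 3.90 and 2.77 CPM in TD139-treated mice and at 36.1, 38.0 and 67.2 CPM in vehicle-treated mice. TD139-treated mouse 1 lay just above the highest naïve mouse and mice 2 and 3 lay below the lowest. The groups overlapped, and the log2 fold change of TD139-treated over naïve mice was −0.41 ± 0.51 (SE; edgeR adjusted p = 0.63). TD139 acts on the protein, so this transcript does not check the drug.

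Against the naïve retina, some long transcripts of neuronal adhesion molecules, synaptic scaffolds and ion channels were called higher in TD139-treated mice, among them Pcdh7, Fat3, Rims1 and Kcnd3, with 9 of 96 protocadherins and cadherins, 5 of 25 synaptic genes and 8 of 77 potassium channels. Called lower were 42 of 82 cytosolic ribosomal protein genes, 21 of 82 genes of oxidative phosphorylation and 7 of 18 glycolytic genes, among them Rps29, Ndufa2 and Aldoa. Of 15196 genes tested, 413 were called higher (2.72%) and 362 lower (2.38%) at an adjusted p under 0.05 (edgeR quasi-likelihood test, Benjamini-Hochberg). The median change was 0.67 on the log2 scale among the genes called higher and −0.53 among those called lower, and 51 and 4 of them changed by at least 1. All adjusted p-values of called genes lay between 0.041 and 0.050. The call is therefore fragile: it dropped to 0 genes when naïve mouse 1 or 2, vehicle-treated mouse 2, or TD139-treated mouse 2 or 3 was left out, and rose to 1523 higher and 1156 lower without naïve mouse 3. When the vehicle-treated mice were left out of the fit, 1 gene was called higher and 0 lower.

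With the study's cut-off of 2 on the log2 scale, 3 genes remained higher (0.0197%) and 1 lower (0.00658%). Sned1, which encodes an extracellular matrix protein, is described below. Kcnt2, a sodium-activated potassium channel, had 2, 3 and 1 counts in naïve and 11, 27 and 11 counts in TD139-treated mice, so that its naïve level was at the floor in every mouse. Dok6, an adaptor of receptor tyrosine kinases, had 2, 8 and 7 counts against 41, 41 and 43 counts. Hist1h4h, a histone H4 gene whose main transcript lacks a poly(A) tail, had 23, 29 and 14 counts against 3, 9 and 4 counts. Kcnt2, Dok6 and Hist1h4h stayed below 30 counts in every naïve mouse, and the groups did not overlap in any of the 4 genes.

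The fold change rose with the length of the transcript. Across 15068 genes with a known length, Spearman's rho between the log2 fold change and the length of the longest basic transcript was 0.61, and it was 0.74 over the 10304 genes with at least 10 CPM. Genes are not independent replicates, and this is a description of the 6 mice. With GC content the rho was −0.42, with the coding length 0.41 and with the length of the 3′ untranslated region 0.51. When genes were split into 10 equal groups by length, the median log2 fold change climbed at every step, from −0.37 in the shortest group (median 937 bases) to 0.42 in the longest (median 8280 bases). The shortest group held 179 genes called lower and 1 called higher, and the longest held 225 called higher and 1 called lower. Genes called higher had a median length of 7099 bases and a median GC content of 44.3%, those called lower 1251 bases and 55.3%, and all tested genes 3132 bases and 50.4%.

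**Figure D1:**
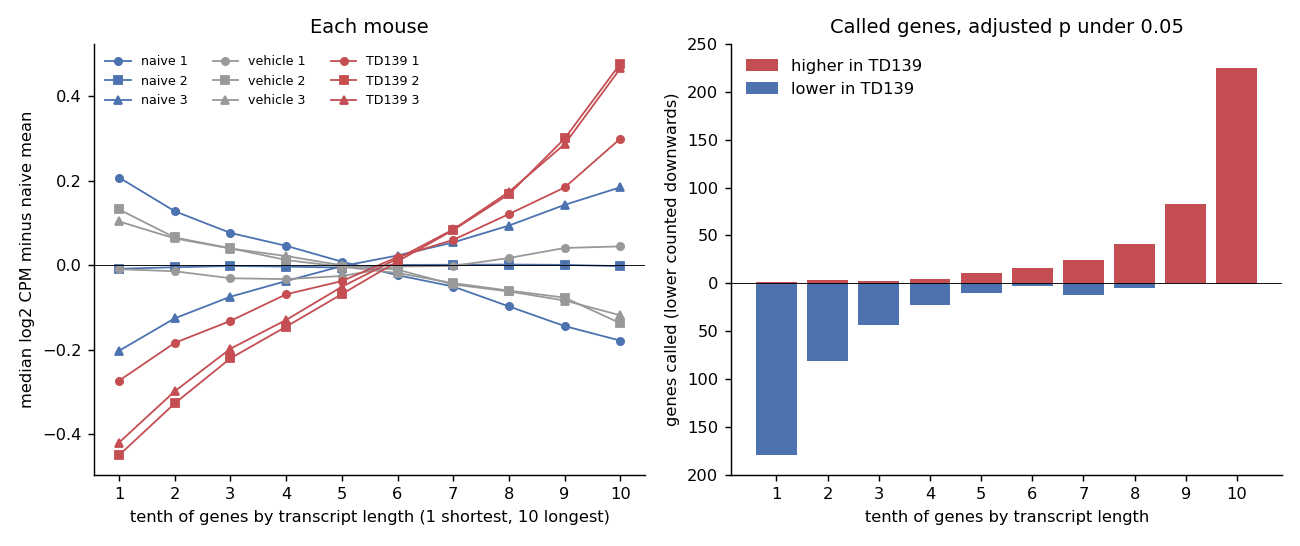
Left, the median over genes of log2 CPM minus the naïve mean (y axis) in each of 10 equal groups of genes by transcript length (x axis), 1 line per mouse, coloured by group and marked by replicate. Right, the number of genes called at an adjusted p under 0.05 in each group, higher in TD139-treated mice drawn upwards and lower drawn downwards. The 3 TD139 lines run from below to above all others, naïve mouse 3 lies nearest to them, and the calls move from 179 lower in the shortest group to 225 higher in the longest.

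The same trend could be read in each mouse by itself. The correlation, across genes, of the deviation from the mean of all 9 mice with transcript length was 0.44, 0.49 and 0.51 in TD139-treated mice. In naïve mice it was −0.53, −0.29 and 0.20, and in vehicle-treated mice −0.16, −0.43 and −0.33. The 3 TD139-treated mice lay together above every other mouse, while the naïve mice were spread widely. The difference between TD139-treated and naïve mice was 0.68, with an exact two-sided permutation p of 0.1, the smallest this design allows. The 3 mice with the most positive trend were also those with the most reads on no gene (21.3%, 22.8% and 22.6% in TD139-treated mice, 19.1%, 19.1% and 19.9% in naïve mice), and its part in the result was not tested.

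To allow for length, a smooth trend on transcript length and GC content was fitted in each mouse and entered as an offset in the same test. Over 15060 genes, 0 were then called higher and 0 lower (0.0%) by edgeR, with 1063 higher (7.06%) and 1120 lower (7.44%) at an unadjusted p under 0.05. DESeq2 with the same offset called 201 higher (1.33%) and 273 lower (1.81%), and 1429 (9.4%) and 1157 (7.61%) without it. The rho with length was −0.04 after the correction, and the median change of the genes called without the offset shrank to 0.26 among those higher and −0.16 among those lower. Of these, 375 of 411 higher and 342 of 358 lower kept their direction, and 216 and 139 had an unadjusted p under 0.05 in the corrected fit. Below, a corrected value is one from this fit, and a gene is called where edgeR calls it unless DESeq2 is named. The correction also removes any true difference that follows length, and both values are therefore given.

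**Figure D2:**
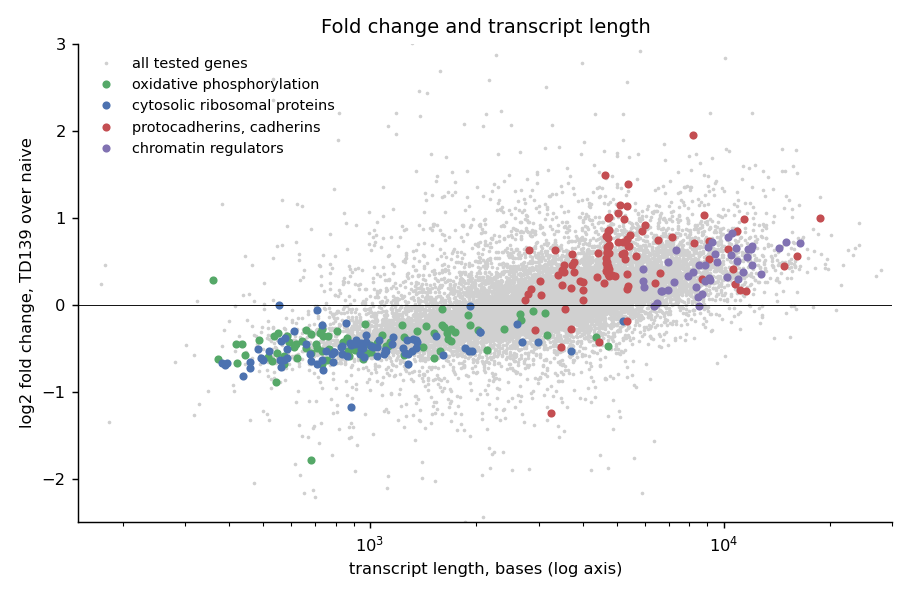
Log2 fold change of TD139-treated over naïve mice without the offset (y axis) against transcript length in bases (x axis, log scale), 1 point per tested gene, with points beyond the axes left out. Oxidative phosphorylation and cytosolic ribosomal protein genes sit at the short, low end, with medians of −0.43 and −0.51, and chromatin regulators at the long end with a median of 0.41, all within the grey cloud, while protocadherins and cadherins lie in its upper part with a median of 0.49.

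The 10 genes with the highest fold change among called genes with at least 50 counts per mouse on average were led by Sned1, at 0.423, 2.41 and 1.61 CPM in naïve and 9.16, 5.91 and 5.57 CPM in TD139-treated mice. Its log2 fold change was 2.21 (SE 0.54, adjusted p = 0.048 by edgeR) and 1.95 after correction. Nos1, the neuronal nitric oxide synthase of a set of amacrine cells, was at 0.499, 1.24 and 1.47 CPM against 3.71, 3.69 and 3.79 CPM, and its log2 fold change was 1.80, or 1.51 corrected. The groups did not overlap in either gene, and the treated mice lay close together for Nos1. Glra1, a glycine receptor subunit, was at 0.922, 2.04 and 2.13 CPM against 2.97, 5.25 and 5.41 CPM, and its log2 fold change rose from 1.42 to 1.59 with the correction for its length of 2390 bases and GC content of 52.7%. Sdk2, an immunoglobulin adhesion molecule that helps retinal neurons find their synaptic layer, was at 3.11, 4.67 and 6.93 CPM against 13.6, 13.5 and 13.001 CPM, with 1.45 and 1.16 corrected.

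Of the other 6, Pcdhgb8, a clustered protocadherin that shares its last exons with its neighbours, had log2 fold changes of 1.49 and 1.41 corrected. Samd5 and Deptor, the latter an inhibitor of mTOR, had 1.66 and 1.63 before and 1.22 and 1.23 after correction. Tmem245 and Nbeal1, with transcripts of 15981 and 15731 bases, went from 1.78 to 1.15 and from 1.60 to 0.71. With the length of the principal transcript in place of the longest, their corrected values were 1.90 and 0.72. Zfp758, a zinc-finger gene, had 1.51 and 1.04. In the corrected fit the unadjusted p of all 10 was between 0.000391 (Samd5) and 0.00805 (Zfp758), and none passed the adjusted threshold in edgeR, whereas 9 of them, all but Zfp758, passed it in DESeq2 with the same offset. In vehicle-treated mice, corrected against the same naïve mice, Sned1 was at 1.04, Samd5 at 1.00 and Nos1 at 0.92, whereas Glra1 was at −0.10, Pcdhgb8 at −0.53 and Nbeal1 at −0.27.

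The 10 genes with the lowest fold change included the peptide precursors Sst and Avp. Sst, which encodes somatostatin and is made by a few amacrine cells, was at 24.97, 29.0 and 23.2 CPM in naïve, 15.0, 12.2 and 14.5 CPM in TD139-treated and 37.1, 30.2 and 35.9 CPM in vehicle-treated mice. Its log2 fold change was −0.89 (SE 0.14, adjusted p = 0.041 by edgeR) and −0.43 corrected. Avp, the vasopressin precursor, was at 7.68, 5.99 and 6.01 CPM against 4.52, 3.48 and 2.77 CPM, with −0.87, or −0.38 corrected. Both are short transcripts, of 721 and 577 bases. Slc16a3, the lactate exporter MCT4, was at 88.7, 68.2 and 119.7 CPM against 38.5, 48.5 and 56.9 CPM. Its log2 fold change was −0.94 before and −0.95 after correction, with a transcript of 4335 bases and a GC content of 56.6%. The parts of length and GC content are not given separately for this gene. The noncoding RNA 5430416N02Rik changed little with the correction, at −0.88 and −0.93, with 10.3, 9.04 and 10.8 CPM against 5.15, 5.74 and 5.49 CPM and the smallest corrected p of the 20 genes (4.46e-05).

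Of the remaining 6, Snhg9, a snoRNA host with a transcript of 183 bases, had −1.35 before and −0.88 after correction. 1600014C23Rik had −1.33 and −0.87, Gdpd3, a lysophospholipase D, −1.01 and −0.63, and Hddc2, a nucleotide phosphatase, −0.87 and −0.54. Trappc6a, a subunit of the TRAPP vesicle-tethering complex, had −0.85 and −0.37. Rps28, a ribosomal protein, had −0.82 and −0.35. In the corrected fit 8 of the 10 had an unadjusted p under 0.05, all but Avp (0.0916) and Rps28 (0.0522), none passed the adjusted threshold in edgeR, and 2 passed it in DESeq2, Slc16a3 and 5430416N02Rik. In vehicle-treated mice 1600014C23Rik was at −1.27 and Slc16a3 at −0.72 corrected, against 0.32 for Sst.

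**Figure D3:**
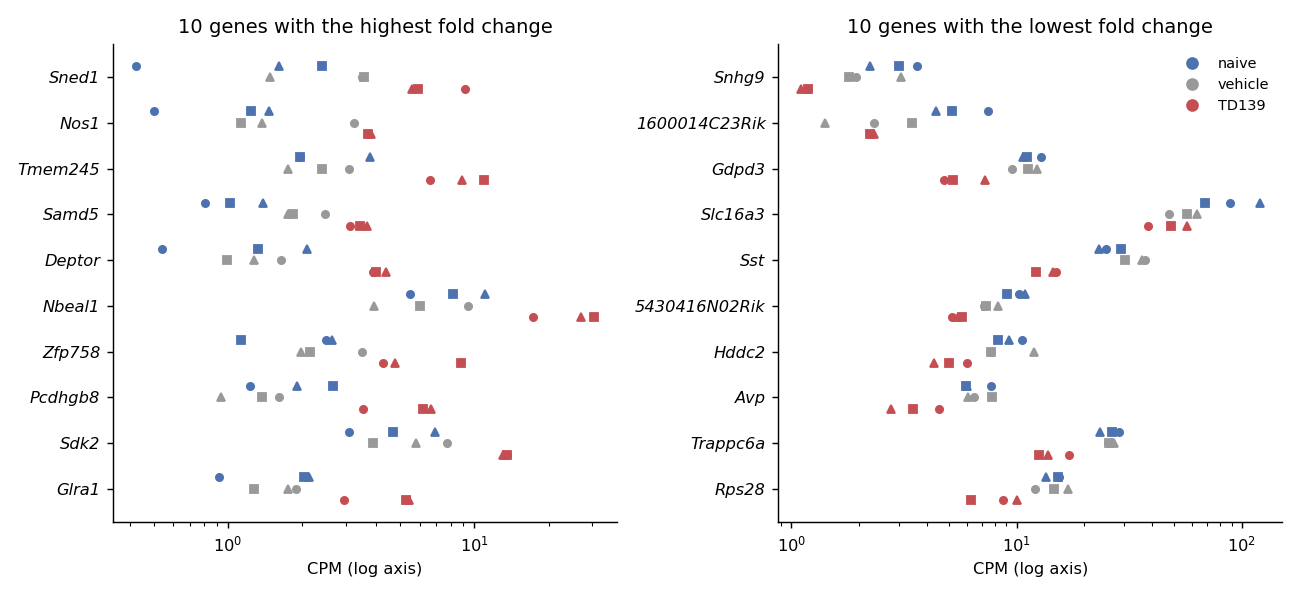
CPM in each of the 9 mice (x axis, log scale) for the 10 genes with the highest (left) and the 10 with the lowest (right) fold change, 1 gene per row, with circles, squares and triangles for replicates 1, 2 and 3. All red TD139 points lie beyond all blue naïve points in each row, which the choice of genes required, and the grey vehicle points lie on the naïve side in rows such as Sst and Gdpd3 and near the TD139 points for Slc16a3.

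The cytosolic ribosome was the group with the largest share of called genes among those described. Ribosomal protein genes are short, abundant transcripts that every cell makes together. Of 82 tested (of 86 listed), 42 were called lower and 0 higher, against 2.38% of all genes called lower, and 68 had no overlap between the groups on the low side, against 16.8% of all genes (15.3% on the high side). Their median log2 fold change was −0.51, beside −0.002 over all tested genes. Rps29 was at 286, 231 and 191 CPM in naïve and 152, 137 and 149 CPM in TD139-treated mice, with a log2 fold change of −0.70. Rplp1, of the ribosomal stalk, was at 523, 457 and 385 CPM against 304, 267 and 307 CPM. Of the 4 most abundant members, Rplp1, Rpl8 and Rpl13a were called at −0.64, −0.49 and −0.58, and Rpl4, with −0.36, was not. After correction the list median was −0.16, edgeR called 0 genes and DESeq2 8 lower, beside 1.81% of all genes lower, and 29 of 82 were lower and 0 higher at an unadjusted p under 0.05, beside 7.44% of all genes lower. By corrected CPM, 41 had no overlap on the low side and 1 on the high side, beside 10.9% and 10.3% of all genes. The corrected medians were −0.13, −0.14 and −0.20 in the TD139-treated mice, 0.05, −0.04 and −0.01 in naïve mice and 0.03, 0.02 and 0.15 in vehicle-treated mice. The TD139-treated mice lay below all others. Over the 9 mice left out in turn the corrected median stayed between −0.17 and −0.12, while the 29 genes fell to 16 without TD139-treated mouse 3. With the length of all exons in place of the longest transcript the median was −0.24, and 50 were lower at an unadjusted p under 0.05, beside 1534 of all genes. Ribosomal protein genes have many processed copies in the genome, and how reads were split between them is not given in the sources used here.

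The promoters of these genes are shown because 42 of the genes were called in 1 direction. RefSeq gives a start and promoter on GRCm38.p6 for 60 of the 82 genes, as 71 windows of 300 bases from 250 before to 50 after the start. The letters CCGGAAG, read on both strands, form a core that ETS factors such as GABPA bind. They are in 25 of these windows (35.2%), beside 14.9% of 14254 windows of tested genes and 8.86% of all 32851 windows in the table. The share was 38.9% for ribosomal protein genes called lower and 31.4% for those not called. It was 33.4% over all genes called lower and 7.45% over all called higher. Stretches of 60 bases from the 3 most abundant called genes with the letters before the start follow, with the match in capitals. Each runs 5′ to 3′ on the gene's strand, and the match lies on the opposite strand, so that it reads CTTCCGG. They lie at chr9:120127552-120127611 (Rpsa), chr11:98026645-98026704 (Rpl19) and chr17:24719910-24719969 (Rps2), all on the plus strand and before the RefSeq start. The Rps2 stretch lies almost wholly within Snhg9, an antisense gene on the minus strand (chr17:24719531-24719965) and one of the 10 lowest genes, and within the longer GENCODE span of Rps2. How the counting used strand is not given in the sources used here, so reads of Snhg9 and Rps2 may not be told apart.
Rpsa: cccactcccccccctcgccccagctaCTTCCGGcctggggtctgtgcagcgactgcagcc
Rpl19: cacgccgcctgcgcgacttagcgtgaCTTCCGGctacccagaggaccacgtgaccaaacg
Rps2: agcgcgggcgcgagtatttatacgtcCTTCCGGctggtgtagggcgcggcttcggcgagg
Rpsa, one of the genes shown, was at 250, 227 and 196 CPM in naïve and 169, 150 and 147 CPM in TD139-treated mice, with a log2 fold change of −0.53, or −0.32 corrected (unadjusted p = 0.00078).

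Other lists of housekeeping genes with short transcripts also had calls on the low side, where 2.38% of all genes were called. Of 75 mitochondrial ribosomal protein genes, 15 were called lower and 0 higher, with a median of −0.36, or −0.09 corrected. Of 82 nuclear-encoded genes of oxidative phosphorylation, 21 were called lower and 0 higher, with a median of −0.43, or −0.08 corrected. Ndufa2, a subunit of respiratory complex I, was at 119, 90.1 and 75.9 CPM in naïve and 63.4, 55.3 and 58.6 CPM in TD139-treated mice, while the longer Atp5b, the catalytic subunit of ATP synthase, was at 1549, 1442 and 1284 CPM against 1222, 1237 and 1187 CPM, with log2 fold changes of −0.68 and −0.23. The corrected value of Ndufa2 was −0.25, and that of Atp5b was below 0.01 in size. Of 37 proteasome subunits, 8 were called lower and 0 higher, with medians of −0.32 and −0.08. In the corrected fit, 18, 17 and 7 members of these lists were lower at an unadjusted p under 0.05, and 0, 1 and 0 were higher, beside 7.44% and 7.06% of all genes. DESeq2 with the correction called 7, 6 and 2 lower and 0 higher, beside 1.81% of all genes lower. The 17 of oxidative phosphorylation fell to 11 without naïve mouse 1. When 1 mouse was left out, the corrected medians ran from −0.09 to −0.06, from −0.10 to −0.04 and from −0.11 to −0.06. With the length of all exons the corrected medians were −0.15, −0.14 and −0.18. There, 23, 28 and 18 members were lower at an unadjusted p under 0.05, beside 1534 of all genes.

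Glycolytic genes were the next list with calls on the low side. Photoreceptors ferment most of their glucose to lactate, and the list holds the enzymes of that route and the lactate exporters. Of 18 tested genes, 7 were called lower and 0 higher (Aldoa, Pkm, Ldha, Pfkl, Tpi1, Pgk1 and Slc16a3), beside 2.38% of all genes called lower, with a median of −0.32, or −0.19 corrected. In the corrected fit 5 were lower and 0 higher at an unadjusted p under 0.05, beside 7.44% of all genes lower. Without naïve mouse 2, 8 were lower, and without naïve mouse 3, 4 were lower and 1 higher. With the length of all exons 11 were lower, beside 1534 of all genes, and the median was −0.28. DESeq2 with the correction called 3 lower, beside 1.81% of all genes. The corrected medians were −0.24, −0.13 and −0.17 in TD139-treated and 0.05, −0.10 and 0.03 in naïve mice. Pfkl, the liver-type phosphofructokinase, was at 720, 632 and 665 CPM in naïve and 441, 446 and 461 CPM in TD139-treated mice. Its log2 fold change was −0.58, or −0.52 corrected (unadjusted p = 0.00037). Aldoa, an aldolase, was at 4208, 3417 and 3406 CPM against 2486, 2428 and 2537 CPM, with −0.57 and −0.20. Ldha, lactate dehydrogenase A, was at 1597, 1265 and 1583 CPM against 869, 1033 and 1110 CPM, with −0.56 and −0.32. In vehicle-treated mice, which share the naïve mice, the corrected medians were −0.20, −0.19 and −0.16, and Ldha was at 861, 1151 and 965 CPM.

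Protocadherins and cadherins, surface proteins by which neurons recognise each other, were the list that stood highest after correction among those described here of at least 20 tested genes. Of 96 tested (of 102 listed), 9 were called higher and 0 lower, against 2.72% of all genes called higher, and the median was 0.49. After correction it was 0.32, with 26 of 95 higher and 1 lower at an unadjusted p under 0.05, beside 7.06% of all genes higher. Corrected medians were 0.39, 0.23 and 0.34 in TD139-treated, −0.18, 0.09 and 0.11 in naïve and 0.29, 0.11 and 0.05 in vehicle-treated mice. The TD139-treated mice lay above the naïve mice, but vehicle-treated mouse 1 lay among them. Without naïve mouse 1, the lowest of its group, the corrected median was 0.24 and the 26 genes fell to 15, and without TD139-treated mouse 2 they fell to 17. DESeq2 with the correction called 5 higher and 0 lower, beside 1.33% of all genes higher.

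Pcdh7, a non-clustered protocadherin, was at 13.8, 18.6 and 22.5 CPM in naïve and 35.6, 38.3 and 38.3 CPM in TD139-treated mice. Its log2 fold change was 1.03 (adjusted p = 0.041 by edgeR), or 0.62 corrected. Fat3, a giant cadherin that shapes amacrine cell dendrites, was at 38.7, 44.6 and 51.8 CPM against 84.5, 92.5 and 92.0 CPM, with 0.99 and 0.40. Pcdh17 and Pcdh9 had 0.98 and 0.75, or 0.46 and 0.34 corrected. The other called members were Pcdh10, Pcdh18, Pcdh19, Pcdhb19 and Pcdhgb8. The abundant Celsr3, an atypical cadherin of axon guidance, was at 166, 180 and 236 CPM against 173, 237 and 241 CPM and overlapped. The 56 clustered members tested had a median of 0.59, or 0.42 corrected, with 16 higher and 0 lower at an unadjusted corrected p under 0.05, and these share exons, so that their counts are not independent of each other.

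Synaptic and channel genes followed. Of 25 synaptic adhesion and scaffold genes, 5 were called higher and 0 lower, beside 2.72% of all genes called higher, with a median of 0.43, or 0.15 corrected. At an unadjusted corrected p under 0.05, 5 were higher and 0 lower, beside 7.06% of all genes higher, and 3 were higher without naïve mouse 1 or TD139-treated mouse 2. The corrected medians were 0.15, 0.11 and 0.08 in TD139-treated and 0.28, 0.11 and 0.15 in vehicle-treated mice, so that the drug-treated mice did not stand above the vehicle-treated ones. Rims1, a scaffold of the vesicle release site, was at 13.1, 20.01 and 20.3 CPM in naïve and 32.3, 29.2 and 31.8 CPM in TD139-treated mice, with a log2 fold change of 0.80, or 0.52 corrected. Lrrtm2, Dlg2 and Pclo were also called. Pclo, whose transcript of 20084 bases is among the longest, went from 0.80 to 0.15 with the correction.

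Of 77 potassium channel genes tested (of 97 listed), 8 were called higher and 0 lower, with a median of 0.24, or 0.19 corrected, beside 2.72% of all genes called higher. At an unadjusted corrected p under 0.05, 18 were higher and 2 lower, beside 7.06% and 7.44% of all genes. DESeq2 with the correction called 8 higher and 1 lower, beside 1.33% and 1.81%. The corrected medians were 0.23, 0.18 and 0.18 in TD139-treated and 0.01, 0.00 and −0.02 in naïve mice, but 0.25, 0.11 and 0.25 in vehicle-treated mice. Kcnd3, an A-type channel, was at 56.8, 63.4 and 67.3 CPM in naïve and 97.0, 122 and 108 CPM in TD139-treated mice, with 0.80 and 0.49. Kcna1, a delayed rectifier, was at 29.2, 31.3 and 36.4 CPM against 46.3, 47.3 and 49.4 CPM, with 0.56 and 0.48. Kcnj6, a G-protein-gated channel, had 1.08 and 1.02, and Hcn4, a pacemaker channel of bipolar cells, had 0.88 and 0.76. Of 41 calcium and sodium channel genes, 4 were called higher (Cacng4, Cacnb4, Trpm7 and Cacna2d1) and 0 lower, with medians of 0.24 and 0.08.

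Regulators of transcription were described in the same way, beside 2.72% of all genes called higher and 2.38% lower. Of 43 chromatin regulators, whose median transcript is 9085 bases, 4 were called higher and 0 lower. Their median of 0.41 became 0.04 after correction, and 0.16 with the length of all exons, where the synaptic list had 0.17. At an unadjusted corrected p under 0.05, 4 were higher and 3 lower, beside 7.06% and 7.44% of all genes, and the 4 ranged from 1 to 9 when 1 mouse was left out. Over the same fits the corrected median ran from 0.014 to 0.095. Mll1, a histone methyltransferase now named Kmt2a, went from 0.71 to 0.19. Of 315 genes named Zfp, mostly C2H2 zinc-finger factors, 16 were called higher and 3 lower, with medians of 0.20 and 0.03 and a median length of 3464 bases. In the corrected fit 34 were higher and 23 lower at an unadjusted p under 0.05. The 34 fell to 17 without TD139-treated mouse 2, and the 23 to 11 without naïve mouse 1. The corrected median of these genes ran from 0.012 to 0.067 when 1 mouse was left out.

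**Figure D4:**
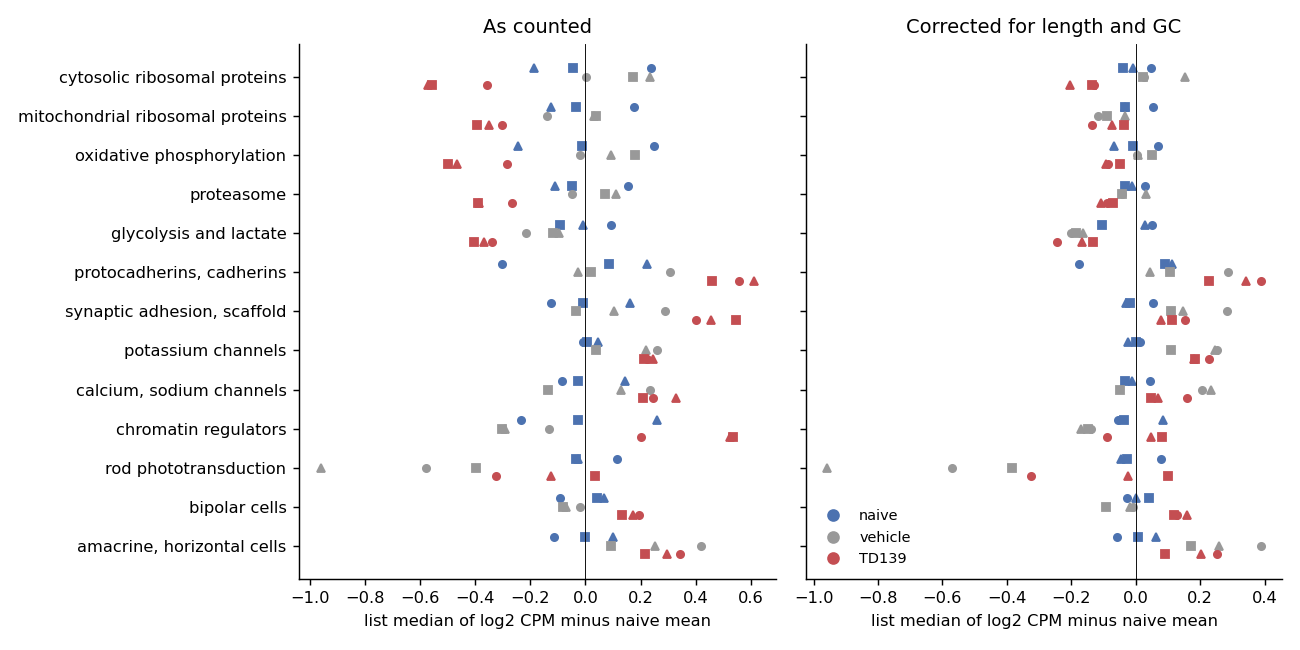
Median over the members of each list of log2 CPM minus the naïve mean (x axis) in each mouse, as counted (left) and after correction for length and GC content (right), coloured by group with circles, squares and triangles for replicates 1, 2 and 3. On the right, the TD139 points of the cytosolic ribosome (−0.13 to −0.20) and of potassium channels (0.18 to 0.23) stay apart from the naïve points, the chromatin regulators fall back to between −0.09 and 0.08, and rod phototransduction separates TD139 mouse 1 at −0.33 from mice 2 and 3.

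Of 25 genes of rod phototransduction and the outer segment disc, 1 was called lower and 0 higher, beside 2.38% and 2.72% of all genes, with a median of −0.15, or −0.08 corrected. The corrected medians were −0.33, 0.10 and −0.02 in TD139-treated and −0.57, −0.38 and −0.96 in vehicle-treated mice. TD139-treated mouse 1 lay just above the vehicle range, and mice 2 and 3 lay near the naïve mice. Without mouse 1 the corrected median was 0.05. DESeq2 called 2 higher and 3 lower without the correction, beside 9.4% and 7.61% of all genes, and 0 higher and 2 lower with it, beside 1.33% and 1.81%. Gnat1, the rod transducin, was at 19119, 17506 and 15239 CPM in naïve and 13804, 16293 and 14744 CPM in TD139-treated mice, with overlap between the groups and a log2 fold change of −0.21 (adjusted p = 0.33 by edgeR). Pde6b, the phosphodiesterase subunit, was at −0.13, Nrl, the rod transcription factor, at −0.18 and Sag, the rod arrestin, at −0.35, none of them called. The called member was Guca1a, a guanylate cyclase activator, at 2070, 1648 and 1700 CPM against 1194, 1330 and 1392 CPM. Its transcript of 873 bases is short, and its log2 fold change of −0.47 became −0.01 after correction. Among 14 cone genes, 1 was called higher and 0 lower, beside 2.72% and 2.38% of all genes. It was Slc24a2, the cone sodium-calcium-potassium exchanger, at 45.8, 52.8 and 62.7 CPM in naïve and 80.7, 85.1 and 78.6 CPM in TD139-treated mice, with a log2 fold change of 0.60, or 0.08 corrected. Arr3, Gnat2 and Opn1sw had 0.13, −0.13 and −0.07, with overlap and no call.

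Markers of inner neurons had few calls. Of 18 bipolar cell genes 0 were called by edgeR, and 7 were called higher and 1 lower by DESeq2, beside 9.4% and 7.61% of all genes, with 0 called by either tool after correction. Of these 18, 10 had a positive and 8 a negative fold change, with a median of 0.16 that did not move with the correction (0.16), and 6 were higher and 1 lower at an unadjusted corrected p under 0.05, beside 7.06% and 7.44% of all genes. The corrected medians were 0.13, 0.12 and 0.16 in TD139-treated, −0.03, 0.04 and 0.00 in naïve and −0.01, −0.09 and −0.02 in vehicle-treated mice, so that the TD139-treated mice lay above all others. The count of 6 higher fell to 1 without TD139-treated mouse 3, and to 2 or 3 without any one naïve mouse. Grm6, the glutamate receptor of ON bipolar cells, was at 211, 198 and 142 CPM in naïve and 212, 258 and 289 CPM in TD139-treated mice, with 0.46 and 0.43 corrected (unadjusted p = 0.025). Trpm1, the channel it controls, was at 234, 237 and 278 CPM against 316, 331 and 322 CPM, with 0.37 and 0.18. Of 18 amacrine and horizontal cell genes, 2 were called higher (Nos1 and Onecut2), beside 2.72% of all genes, and 0 lower, with medians of 0.30 and 0.18, while Sst, which some amacrine cells make, was called lower at −0.89. The corrected medians of the amacrine and horizontal list were 0.25, 0.09 and 0.20 in TD139-treated, −0.06, 0.01 and 0.06 in naïve and 0.39, 0.17 and 0.26 in vehicle-treated mice. The TD139-treated mice lay above the naïve mice and overlapped the vehicle-treated ones. In this list 6 were higher and 1 lower at an unadjusted corrected p under 0.05, beside 7.06% and 7.44% of all genes. The 6 ranged from 3 to 8 when 1 mouse was left out. Of 14 retinal ganglion cell genes 0 were called, with a median of −0.06, or 0.10 corrected. The abundant Gad1 and Slc6a9, of GABA synthesis and glycine uptake, were at 0.16 and 0.09.

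Glial and microglial genes had no common level in the TD139-treated mice. Of 25 gliosis, 17 homeostatic microglia, 22 disease-associated microglia and 16 complement genes tested, edgeR called 0. DESeq2 without the correction called 1 gliosis and 1 disease-associated microglia gene higher, beside 9.4% of all genes. With the correction it called 0, beside 1.33% of all genes higher and 1.81% lower. At an unadjusted corrected p under 0.05, 0, 1, 1 and 0 members of these lists were higher in edgeR and 0 were lower, beside 7.06% and 7.44% of all genes. With 1 mouse left out in turn, up to 4 homeostatic and 5 disease-associated microglia genes were higher and up to 3 gliosis and 2 complement genes lower. Over all genes these counts ran from 701 to 1389 higher and from 722 to 1187 lower. Without TD139-treated mouse 1, edgeR without the correction called 1 gliosis gene higher and 2 lower, 1 disease-associated microglia gene lower and 2 complement genes lower. Over all genes that fit called 1041 higher and 613 lower. Corrected medians in TD139-treated mice 1, 2 and 3 were 1.72, −0.12 and −0.35 for complement, 0.96, 0.06 and −0.23 for homeostatic microglia, 0.72, −0.14 and −0.15 for disease-associated microglia and 0.58, −0.54 and −0.57 for gliosis. Mouse 1 was thus above every naïve mouse in all 4 lists, while mice 2 and 3 were at the naïve level or below it. In vehicle-treated mice the medians lay between 1.33 and 3.07. C1qa, a subunit of the complement trigger C1q, was at 8.72, 8.29 and 10.2 CPM in naïve, 36.1, 5.85 and 5.41 CPM in TD139-treated and 85.4, 58.4 and 126 CPM in vehicle-treated mice. C3 followed the same order, at 1.96, 2.98 and 2.20 CPM, 16.1, 0.870 and 1.15 CPM, and 26.8, 26.1 and 41.3 CPM. Gfap, the filament of gliotic Müller cells and astrocytes, was at 26.6, 44.7 and 41.9 CPM in naïve and 43.5, 11.8 and 18.1 CPM in TD139-treated mice. Without TD139-treated mouse 1 the uncorrected medians were −0.58 for complement and −0.87 for gliosis, in place of 0.62 and −0.04. The corrected medians were then −0.26 and −0.69, in place of 0.70 and −0.09.

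The microglial genes Csf1r, Cx3cr1, P2ry12 and Aif1 were at 18.6, 7.82, 3.26 and 1.85 CPM in TD139-treated mouse 1, above the naïve ranges of 7.61 to 10.4, 2.13 to 3.38, 0.867 to 1.34 and 0.829 to 1.15 CPM. In mice 2 and 3 Csf1r was at 8.42 and 6.36 CPM, Cx3cr1 at 2.85 and 1.98 CPM, P2ry12 at 1.43 and 1.26 CPM and Aif1 at 0.244 and 0.711 CPM. Homeostatic Müller cell genes had a corrected median of 0.18, which was 0.03 without TD139-treated mouse 1. Of 15, 1 was called higher, beside 2.72% of all genes. It was Aqp4, the water channel of Müller cell endfeet, at 61.2, 70.5 and 65.2 CPM in naïve and 113, 119 and 87.5 CPM in TD139-treated mice. Its log2 fold change was 0.70, or 0.31 corrected. Glul, glutamine synthetase, and Rlbp1, a retinal-binding protein, were at 0.16 and 0.11, or 0.22 and 0.32 corrected, without a call.

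**Figure D5:**
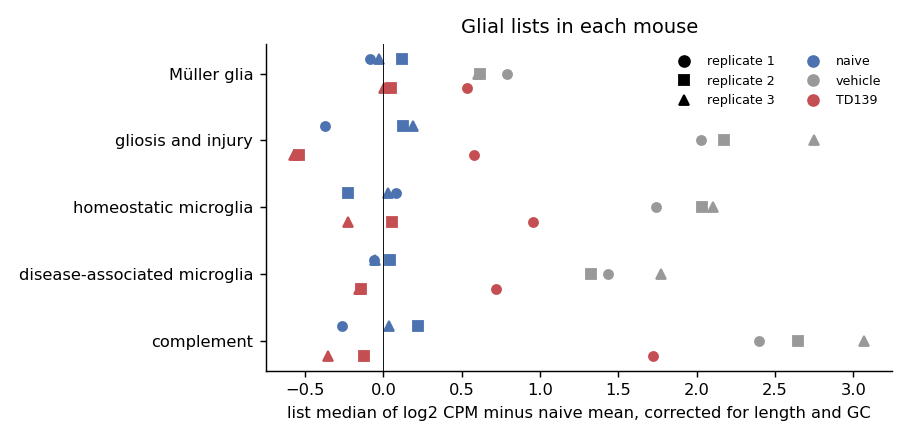
Median over each list of log2 CPM minus the naïve mean, corrected for length and GC content (x axis), for 5 glial lists (rows) in each mouse, coloured by group and marked by replicate. The red circle of TD139 mouse 1 lies between the naïve and vehicle points, as at 1.72 for complement, while TD139 mice 2 and 3 lie at or left of the naïve points.

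By a stricter rule on the corrected fit, 1111 of 15060 genes (7.38%) were kept. Each had an unadjusted p under 0.05 in one direction with transcript length taken in 3 ways and without TD139-treated mouse 1. Each also had no overlap between the groups in corrected CPM, checked only with the longest basic transcript and all mice of both groups. This set was formed with its values in view, and 0 of its genes passed the adjusted threshold in edgeR. It divided into 567 higher and 544 lower, with median lengths of 3950 and 3910.5 bases, and 256 of them were also called without the correction, 168 higher and 88 lower. These 256 had median lengths of 5836 bases among the higher and 1939.5 among the lower, a split that follows from the uncorrected call by which they were picked. Shisa6, an auxiliary subunit of AMPA receptors, was one, at 9.18, 7.42 and 8.87 CPM in naïve and 14.5, 16.9 and 15.0 CPM in TD139-treated mice, with 0.87 and 1.25 corrected. That gain rests on an annotated transcript of 1578 bases, and with the length of all exons the corrected value was 0.86. Gucy1a2, a subunit of the guanylate cyclase that nitric oxide activates, was at 3.34, 5.01 and 7.29 CPM against 10.9, 16.6 and 13.4 CPM. It had 1.39 and 1.47, or 1.24 corrected with the length of all exons. Ebpl, at 147 and 97.3 CPM on average, had −0.59 and −1.03, but the annotated transcript of 10092 bases on which the correction rests may not be the one made in retina.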

How the data were processed

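RNA of whole retinas was sequenced as poly(A) libraries, each mouse in 2 single-read runs. For each run the authors deposited whole-number counts per gene symbol, made with Illumina's BaseSpace RNA Express on mm10 (per the labels' processing notes) and not normalized. The aligner version and annotation are not given in the sources used here. Reads on no gene (16.5 to 22.8%) and ambiguous reads (0.303 to 0.471%) were left out.

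Counts of the runs were summed per mouse, the replicate. Of 23420 symbols, 98.4% were joined to GENCODE annotation on GRCm38 for length, GC content and position. All 9 mice were fitted in edgeR 4.0.16 (R 4.3.3) with filterByExpr, TMM and the robust quasi-likelihood F test, with Benjamini-Hochberg adjustment. The standard error is the log2 fold change over the square root of F. CPM of single genes are TMM-scaled; list sums and the floor are not. The corrected fit used a natural spline with 4 degrees of freedom on log2 length of the longest basic transcript and on GC content, per mouse, as offset. List medians by mouse used log2 CPM with a prior count of 0.5. No set test was run. Steps were tested on simulated data.

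The members, lists and tests were chosen with earlier results of these data known. Of 58 lists written, 19 are described by their counts, together with the lens, skeletal muscle, cone, ganglion cell and sex-linked genes. The text names the 10 strongest changes in each direction among called genes averaging 50 or more counts with no overlap, up to 4 of the most abundant members of a described list, all its called members where at most 5 were called, Lgals3 and cell type markers. The same rule in the corrected fit named 0 genes. Other genes were singled out with their values known: Kcnt2, Dok6, Hist1h4h, Shisa6, Gucy1a2, Ebpl and called members of the ribosomal, oxidative phosphorylation, glycolysis, protocadherin and potassium channel lists. Alternatives were RLE, library size alone, DESeq2 1.42.0, other filters, fewer groups, a replicate block, single runs, other length measures and each mouse left out; a sex term and the principal transcript length were added after seeing the data. Labels do not say whether mice shared a litter or cage. Some genes that the rule names are not reported here.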

Additional observations from a re-analysis of the deposited data

Results flagged for a closer look

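Reads that fell on no gene, which no gene-level comparison uses, made up 22.2% on average in the TD139-treated mice, above the naïve level of 19.3%, with no overlap between the groups (21.3%, 22.8% and 22.6% against 19.1%, 19.1% and 19.9%). Leaving out each of the 6 mice in turn gave differences of 2.61 to 3.34 percentage points. What these reads are was not tested.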

How the results depend on the processing

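Without the length correction, DESeq2 called 1429 genes higher and 1157 lower, a filter of at least 10 CPM gave 795 and 616, library size alone gave 194 lower, only the 2 groups compared gave 1 and 0, and a replicate block gave 0 and 0. Leaving out 1 mouse gave 0 to 1523 higher and 0 to 1156 lower. With the correction, DESeq2 called 201 higher and 273 lower, every other alternative run called 0, and leave-one-out counts at an unadjusted p under 0.05 ran from 701 to 1389 higher and 722 to 1187 lower. Correcting for GC content alone left 2067 higher and 1764 lower at an unadjusted p under 0.05, and for length alone 1320 and 1288. The 4 genes past the study's cut-off fell to 0 with the correction. The rho with length was 0.53 with the union of exons, 0.47 with genomic span and 0.74 at 10 CPM or more. The length trend per mouse differed by 0.52 to 0.89 and the share of reads on no gene by 2.61 to 3.34 when 1 mouse was left out. The 20 named genes kept their sign, which their choice without overlap nearly fixed, but 284 of their values under alternatives lost the call and 181 kept it, and each of the 20 lost it when some mouse was left out. The causes were not tested.

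The replicate block reflects only shared numbers: same-numbered naïve and TD139-treated mice had deviations that correlated at 0.04, −0.05 and −0.01, so the numbers were not taken to pair them. With 3 mice a group, the depth of at least 26171887 reads on genes limits only genes near the floor.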
